A study of Homo sapiens with 4 samples.

Results

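The DNA replication and replication repair genes are a set of 50 human genes, chosen by gene symbol, whose products copy DNA, supply or guard the replication fork, or repair DNA at it. All 50 were found among the 77973 genes of the deposited gene table, and all 50 were among the 13789 genes tested, whose mean over the libraries was 5 reads or more. They were measured in cortical neurons induced from the established human line KOLF2.1J, an induced pluripotent stem cell line with a doxycycline-inducible NGN2 transgene and a constitutive dCas9-BFP-KRAB construct that silences the gene a guide RNA directs it to (CRISPR interference). The 4 groups were a control with a non-targeting guide, a TDP-43 CRISPRi knockdown, 5-azacytidine (an inhibitor of DNA methylation, 5 µM for 72 hours) and both together. All groups carried the transgenes, doxycycline, a lentiviral guide and puromycin selection as pooled stable cells, and the day of harvest of these libraries is not given in the sources used here. Each group had 1 library of polyadenylated RNA read by long-read Iso-Seq, so differences have no replicate check, and every test compares the reads of libraries, not the conditions.

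Replication starts when the origin recognition complex, CDC6 and CDT1 load the ring-shaped MCM helicase onto DNA, a step called licensing. CDC45 and the GINS complex then switch the helicase on, polymerase alpha with primase lays down primers, and polymerases delta and epsilon extend them behind the PCNA clamp. Many of these genes are E2F targets that dividing cells transcribe as they enter S phase, and neurons leave the cell cycle when they form. Polymerases delta and epsilon, PCNA, its loader RFC, FEN1, LIG1 and RPA also fill and seal gaps in excision repair, which neurons retain. The members were therefore read in 3 classes: 30 replication-only genes, 14 genes shared with excision repair, and 6 fork-coupled repair genes that act in homologous recombination or crosslink repair. The first class also holds 4 fork protection and checkpoint genes and 4 regulators of S-phase entry, so its name is a label and not a strict limit of function.

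The libraries held between 466337 reads assigned to genes (azacytidine) and 767621 (knockdown), with 595158 in the control and 477622 in the combined library. Full-length reads made up 24.3% of them with azacytidine, 13.6% with the knockdown, 18.0% in the control and 18.9% with both treatments. TARDBP is the gene of TDP-43 and the target of the guide. It had 104 reads in the control, 72 in the knockdown, 73 in the azacytidine and 43 in the combined library. The knockdown library stood at 58.2% of the control level, and the combined library at 60.0% of the azacytidine level. Neuron markers were present: all 15 genes of the neuron list had reads in every library, with a summed level of 4075 to 4836 CPM (reads of a gene scaled to a common library total). Markers of other cells were present too. The 10 mitosis genes summed to 1305 and 1281 CPM in the control and knockdown libraries and to 130.4 and 93.4 in the azacytidine and combined libraries, and the 10 neural progenitor genes to 1157 and 982.9 against 321.8 and 182.6. MKI67, a marker of cycling cells, had 142 reads in the control, 154 in the knockdown, 2 in the azacytidine and 1 in the combined library. AQP4, an astrocyte gene, had no read in any library, and the 14 glial and mesenchymal genes summed to 206.2 and 181.8 CPM in the libraries without azacytidine and to 93.7 and 56.0 in those with it. The 8 pluripotent genes summed to 432.3 and 483.8 CPM in the control and knockdown libraries. In the azacytidine and combined libraries they summed to 360.5 and 452.4.

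Azacytidine was asked about first, in 2 pairs of libraries that share none: azacytidine against control, and both treatments against the knockdown. A gene was called when its reads differed in both pairs in the same direction, with a two-sided exact binomial p under 0.05 after Benjamini-Hochberg adjustment over all genes tested and an absolute log2 ratio of at least 1. By that rule 19 of the 50 genes (38.0%) were lower with azacytidine and 0 were higher, while 6.21% of all genes tested were called lower and 2.55% higher, 8.75% in all. In single pairs, 28 members were lower and 0 higher without the knockdown (10.4% and 6.05% of all genes), and 24 were lower and 2 higher with it (15.3% and 10%). The median log2 ratio of the 50 was -1.45 without and -1.23 with the knockdown, beside 0.01 and -0.03 over all genes tested. The ratio was below 0 in both pairs for 42 of the 50, and for 35.1% of all genes. In these bulk libraries, fewer cells of a dividing type and less of these RNAs per cell cannot be told apart, and the part of the mitosis, progenitor, glial and mesenchymal markers, which moved with the members, was not tested.

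**Figure D1:**
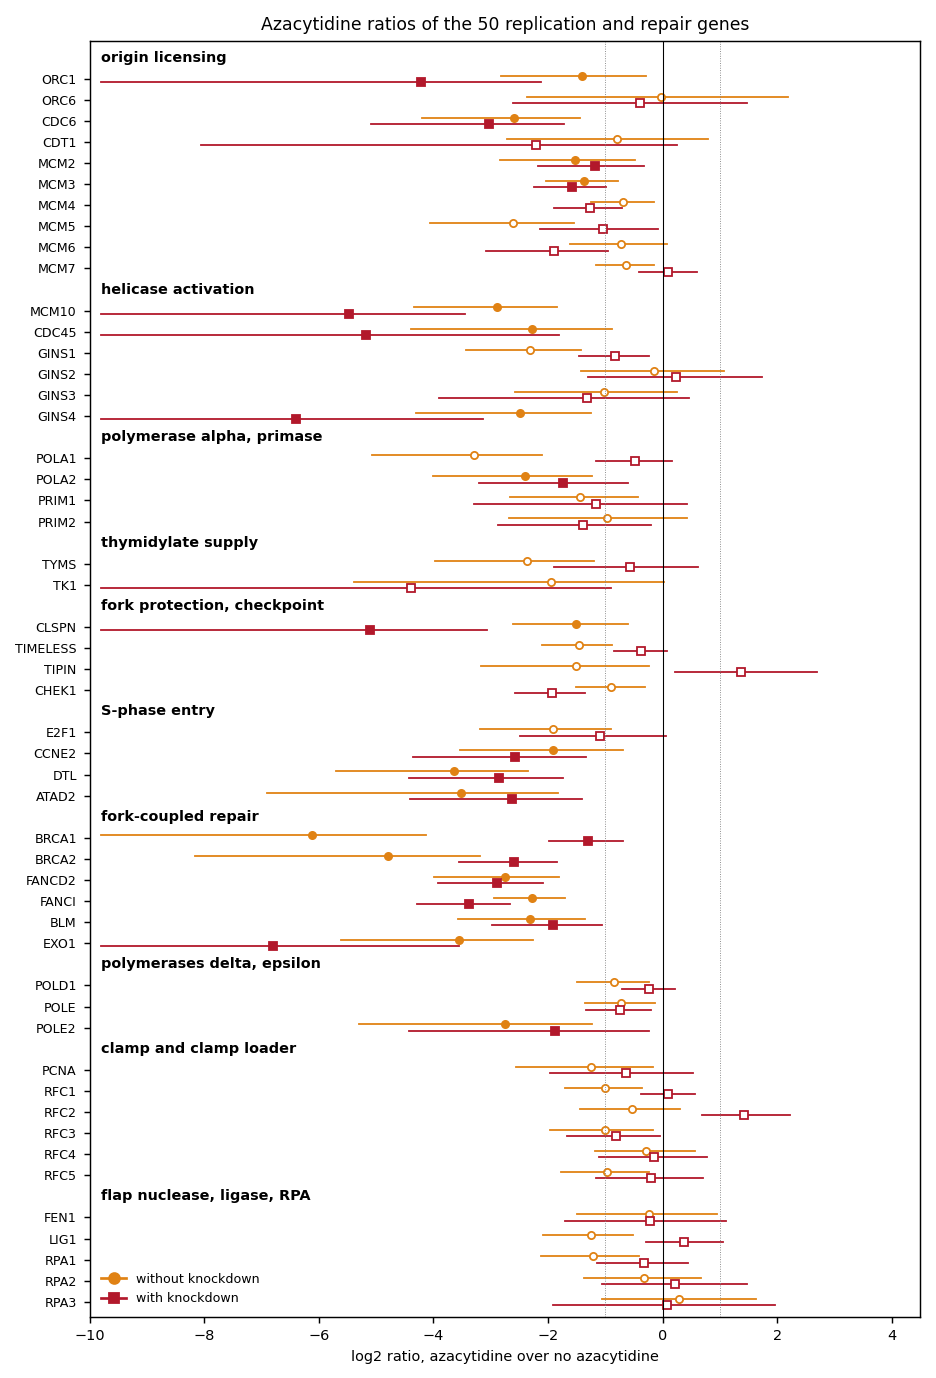
Log2 ratio of azacytidine over no azacytidine for each of the 50 genes, grouped by role (x axis, log2 scale; points without knockdown in orange circles, with knockdown in red squares; lines are 95% intervals that cover counting error only, cut at the left edge of the plot where they run on). Filled symbols are the 19 genes called lower in both pairs; dotted lines mark a log2 ratio of -1 and 1, and the fork-coupled repair genes are all filled.

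The classes differed in how many genes were called. Of the 30 replication-only genes 12 were called lower (40%), and of the 6 fork-coupled repair genes all 6. Of the 14 genes shared with excision repair only POLE2 was (7.14%). Over all genes tested 6.21% were called lower, so the shared class lay near that share. Summed over the class, replication-only genes stood at 2255 CPM with no treatment and 2188 with the knockdown, against 747.6 with azacytidine and 830.0 with both. The fork-coupled genes stood at 937.9 and 1032 against 105.9 and 166.0. The shared genes stood at 969.5 and 823.5 against 527.6 and 751.2, and here the 95% counting intervals of the knockdown and combined libraries overlapped (758.3 to 892.8 and 675.8 to 832.7). Median log2 ratios without and with the knockdown were -1.52 and -1.48 for replication-only genes, -3.14 and -2.75 for fork-coupled genes, and -0.90 and -0.21 for shared genes.

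Excision and break repair genes that are not members served as the comparison the class split asks for. Of 41 such genes, among them the base excision, nucleotide excision and end-joining factors, 1 was called lower and 1 higher (6.21% and 2.55% of all genes tested). Their median log2 ratios were 0.06 and -0.03. Their summed level was 3399 and 3412 CPM in the control and knockdown libraries and 3271 and 3187 with azacytidine and with both. The gene called lower was MRE11, a nuclease of the break-sensing complex that also resects DNA for recombination, with 48 reads in the control, 98 in the knockdown, 17 in the azacytidine and 28 in the combined library. The classes also differ in length, with a median transcript length of 3118 bases for replication-only, 2001 for shared and 5072 for fork-coupled members (3346 over all genes tested). With a trend on length removed, 18 of the 19 calls stood. BRCA1 lost its call, and the mean of its 2 log2 ratios moved from -3.71 to -3.42.

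**Figure D2:**
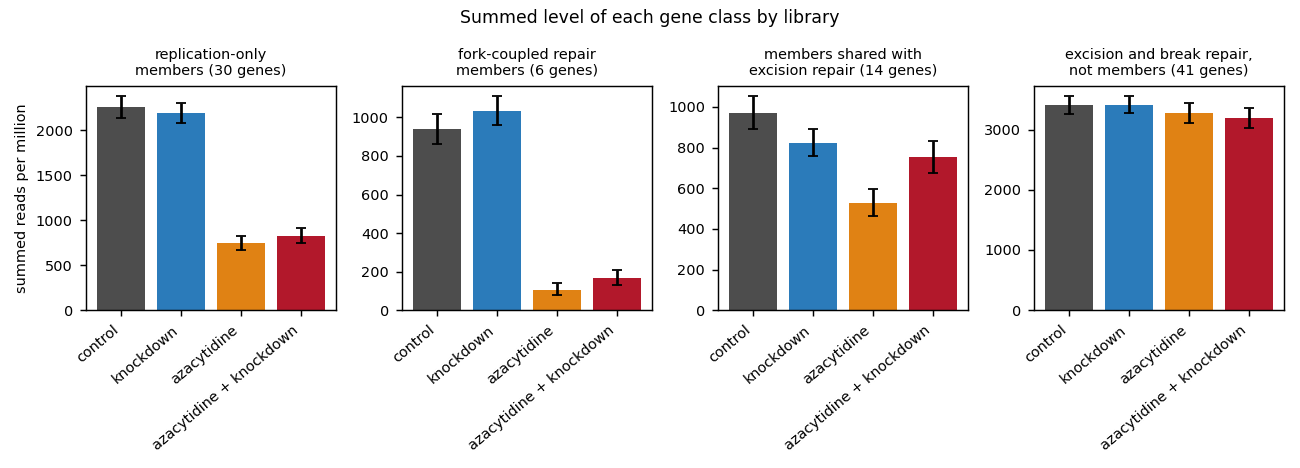
Summed CPM (y axis, from 0, on a separate scale in each panel) of the 30 replication-only, 6 fork-coupled repair and 14 shared members and of 41 excision and break repair genes that are not members, in each of the 4 libraries; error bars are exact 95% Poisson intervals for counting error. The sums of the first 2 classes are lower in both azacytidine libraries, and the sum of the nonmember repair genes lies between 3187 and 3412 in all 4.

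Licensing genes came first in the order of replication, and 4 of the 10 were called lower: ORC1, CDC6, MCM2 and MCM3. Where 4 read numbers stand together, their order is no treatment, knockdown, azacytidine, both. CDC6, the loader of the MCM ring, had 47 reads in the control, 53 in the knockdown, 6 in the azacytidine and 4 in the combined library. Both azacytidine libraries lay far below both others, with log2 ratios of -2.59 without and -3.04 with the knockdown (adjusted exact p = 5.97e-06 and 5.11e-07). ORC1, the largest subunit of the origin recognition complex, had 27, 38, 8 and 1 reads, and its single read in the combined library gave a log2 ratio of -4.21 with a 95% counting interval of -10.02 to -2.11. Its call was near the threshold in the other pair (-1.41, adjusted exact p = 0.0474), and it lost the call with scaling to total counts. CDT1, the partner of CDC6, had 11, 9, 5 and 1 reads and ORC6 5, 8, 4 and 4, and neither was called.

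Of the 6 subunits of the MCM ring 2 were called. MCM3 is ENSG00000112118.20 on chromosome 6 (52264014 to 52284881, hg38). It had 96 reads in the control, 125 in the knockdown, 30 in the azacytidine and 28 in the combined library, and its log2 ratios were -1.37 without and -1.58 with the knockdown (adjusted exact p = 3.13e-05 and 1.37e-07). MCM2 had 33, 48, 9 and 14 reads, with log2 ratios of -1.54 without and -1.18 with the knockdown (adjusted exact p = 0.0175 and 0.0156). For both, each azacytidine library was below each library without it. MCM4 had 87, 115, 44 and 32 reads and was lower in both pairs (-0.69 and -1.27), short of the fold threshold in the first. MCM5 had 55, 37, 7 and 12 reads, passing in the pair without the knockdown (-2.61) but not in the other (-1.03, adjusted exact p = 0.0749). MCM6 had 39, 57, 19 and 10 reads and passed only in the pair with the knockdown (-1.90). The pair that passed was thus not the same for MCM5 and MCM6. MCM7 went against its class: it had 98 reads in the control, 83 in the knockdown, 51 in the azacytidine and 60 in the combined library, and its log2 ratios were -0.64 without and 0.10 with the knockdown (adjusted exact p = 0.0417 and 0.803). Without the knockdown it was lower by less than the fold threshold, and with the knockdown the interval of the ratio ran from -0.40 to 0.60. Part of the deposited MCM7 reads could come from AP4M1, which overlaps MCM7 on the opposite strand, since use of strand in counting is not given in the sources used here. The same holds for other members that overlap a gene on the opposite strand, among them MCM2 (TPRA1), DTL (INTS7), FANCI (POLG), FANCD2 (FANCD2OS) and TYMS (ENOSF1).

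Genes that switch the helicase on included 3 calls of 6: MCM10, CDC45 and GINS4. MCM10, which is needed to activate the loaded helicase, had 67 reads in the control, 92 in the knockdown, 7 in the azacytidine and 1 in the combined library. Its log2 ratio was -2.89 without the knockdown, and the single read of the combined library gave -5.48 with an interval of -11.27 to -3.44. CDC45, which joins the MCM ring in the active helicase, had 26, 21, 4 and 0 reads. With a floor of 3 reads for its 0 it was 4.72-fold lower in the combined than in the knockdown library. That value takes the 21 reads as exact, so it is not a strict lower limit. GINS4, a GINS subunit, had 37, 50, 5 and 0 reads and was 11.2-fold lower there with the same floor. The other GINS subunits were not called. GINS1 had 69, 87, 11 and 33 reads and passed only without the knockdown (-2.31 and -0.82), GINS2 had 15, 10, 11 and 8 and GINS3 18, 12, 7 and 3. GINS2 had log2 ratios of -0.15 and 0.23, with wide intervals (-1.42 to 1.07 and -1.30 to 1.74).

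**Figure D3:**
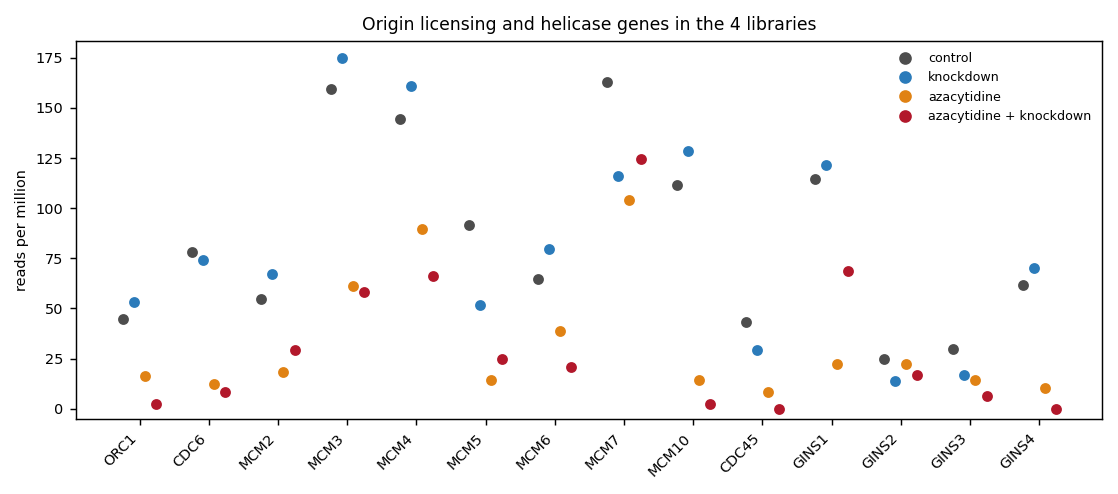
CPM (y axis, linear) of 14 licensing and helicase genes in the 4 libraries, 1 point per library and no error bars. For CDC6, MCM3, MCM10, CDC45 and GINS4 both azacytidine libraries lie below both libraries without azacytidine, while the MCM7 and GINS2 points of the combined library lie above those of the knockdown library.

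Polymerase alpha and primase, which start each new strand, held 1 call of 4 genes. POLA2, the regulatory subunit, had 41 reads in the control, 36 in the knockdown, 6 in the azacytidine and 7 in the combined library, with log2 ratios of -2.39 without and -1.74 with the knockdown (adjusted exact p = 9.04e-05 and 0.00452). POLA1, the catalytic subunit, had 65, 62, 5 and 30 reads, low in the azacytidine library only. PRIM1, the catalytic primase subunit, had 34, 14, 10 and 4 reads and PRIM2 15, 28, 6 and 7, each past the test in 1 of the 2 pairs. The thymidylate genes were not called: TYMS, which makes thymidylate, had 40, 20, 6 and 9 reads, and TK1, which salvages thymidine, had 11, 12, 2 and 0.

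Of the 4 regulators of S-phase entry 3 were called lower, and all 4 had log2 ratios below 0 in both pairs. DTL (ENSG00000143476.18, chromosome 1, 212035553 to 212107400), the receptor through which a ubiquitin ligase removes CDT1 in S phase, had 67 reads in the control, 68 in the knockdown, 4 in the azacytidine and 6 in the combined library. Its log2 ratios of -3.63 without and -2.85 with the knockdown (adjusted exact p = 2.87e-11 and 1.61e-08) were past the threshold under each of the 11 alternative settings. ATAD2, a chromatin-bound ATPase, had 34, 49, 2 and 5 reads, and CCNE2, a cyclin E gene that acts at the start of S phase, 29, 47, 6 and 5. The azacytidine libraries did not overlap the others for either gene. E2F1, the transcription factor that drives many of these genes, had 43, 26, 9 and 8 reads, with log2 ratios of -1.91 without and -1.09 with the knockdown (adjusted exact p = 0.000508 and 0.127). It passed in 1 pair only and was not called.

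Fork protection and checkpoint genes held 1 call of 4. CLSPN, the adaptor that lets ATR activate the checkpoint kinase CHK1, had 43 reads in the control, 71 in the knockdown, 12 in the azacytidine and 1 in the combined library, with log2 ratios of -1.51 without and, on 1 read, -5.10 (interval -10.90 to -3.06) with the knockdown. CHEK1, the gene of that kinase, had 80, 159, 35 and 28 reads and was lower in both pairs, by less than the fold threshold in the first (-0.89 and -1.92). TIMELESS and TIPIN form 1 complex that steadies the fork. TIMELESS had 102, 118, 30 and 61 reads and passed only without the knockdown, and TIPIN, with 22, 10, 6 and 18, had a log2 ratio of -1.51 without the knockdown (adjusted exact p = 0.0579) and was higher with it (1.37, adjusted exact p = 0.0367).

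All 6 fork-coupled repair genes were called lower. FANCI (ENSG00000140525.20, chromosome 15, 89243945 to 89317261), which pairs with FANCD2 on crosslinked DNA, had more reads than any other member in the 2 libraries without azacytidine: 162 reads in the control, 238 in the knockdown, 27 in the azacytidine and 15 in the combined library. Its log2 ratios were -2.27 without and -3.38 with the knockdown (adjusted exact p = 9.63e-17 and 2.26e-33). FANCD2 had 77, 136, 9 and 12 reads, with log2 ratios of -2.74 and -2.89, so both partners were lower in both pairs. BRCA2, a mediator of homologous recombination, had 83, 129, 2 and 14 reads, and the 2 reads of the azacytidine library gave -4.80 with an interval of -8.15 to -3.18. BLM, a helicase that dissolves crossed DNA strands, had 57, 69, 9 and 12 reads. EXO1, the exonuclease that resects DNA ends and also serves mismatch repair, had 63, 66, 4 and 0 reads. With a floor of 3 reads for its 0 it was 14.8-fold lower in the combined than in the knockdown library. BRCA1, which acts upstream of BRCA2, had 122 reads in the control, 100 in the knockdown, 1 in the azacytidine and 27 in the combined library. Its single read with azacytidine gave a log2 ratio of -6.11 (interval -11.95 to -4.13), and the combined library stood at -1.31. Full-length reads were few in this class: they made up 3.93% to 10.0% of its reads in a library, against 18.8% to 36.8% for replication-only genes.

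Of the members shared with excision repair 1 of 14 was called. POLE2, an accessory subunit of polymerase epsilon, had 28 reads in the control, 18 in the knockdown, 3 in the azacytidine and 3 in the combined library. Its log2 ratios were -2.76 without and -1.88 with the knockdown (adjusted exact p = 0.000495 and 0.043), with intervals of -5.29 to -1.23 and -4.42 to -0.24 on 3 reads each, and the call was lost with scaling to total counts or with no filter on low counts. POLE and POLD1, the catalytic subunits of polymerases epsilon and delta, were not called: POLE had 71, 95, 35 and 38 reads and POLD1 had 73, 112, 33 and 64. PCNA, the clamp, had 27, 21, 9 and 9 reads, with log2 ratios of -1.25 and -0.63 that did not pass. None of the 5 clamp loader genes was called lower. RFC1 had 69, 94, 28 and 68 reads, RFC3 40, 50, 16 and 19, RFC4 30, 28, 20 and 17 and RFC5 53, 29, 22 and 17. RFC2 went the other way with the knockdown: it had 34 reads in the control, 24 in the knockdown, 19 in the azacytidine and 44 in the combined library, a log2 ratio of 1.42 in that pair (adjusted exact p = 0.000409) and of -0.54 in the other. The RPA complex coats single-stranded DNA. RPA1 had 49, 41, 17 and 22 reads, RPA2 had 23, 14, 15 and 11, and RPA3 had 11, 7, 11 and 5. FEN1, which trims flaps, had 16, 14, 11 and 8, and LIG1, the ligase that seals nicks, 59, 42, 20 and 37. Of these last 5 genes, RPA1 and LIG1 passed in the pair without the knockdown (-1.21 and -1.25) and none passed in the other.

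Further lists outside the members were counted in the same way, beside 6.21% of all genes tested called lower and 2.55% higher. Of 39 further replication genes tested 13 were called lower and 0 higher. RRM2, a subunit of ribonucleotide reductase, had 79, 86, 3 and 2 reads and E2F2 30, 28, 3 and 0, the largest changes in both pairs, while RRM1 (79, 87, 25 and 28) and WDHD1 (76, 90, 18 and 28) had the smallest of the 13. Of 23 further fork-coupled repair genes 10 were called lower, led by BRIP1 (70, 65, 1 and 0) and RAD54L (58, 81, 3 and 1), with BARD1 (64, 111, 17 and 0) and FANCA (102, 113, 10 and 29) the least changed of the 10 by the smaller of the 2 ratios. In the mitosis list 8 of 9 genes tested were called lower, from MKI67 and TOP2A (109, 133, 3 and 2) to TPX2 (97, 127, 19 and 7) and CCNB1 (45, 34, 9 and 7). In the progenitor list 4 of 7 were, PAX6 (290, 313, 3 and 4), NOTCH1 (48, 50, 6 and 4), SOX9 (22, 27, 1 and 4) and VIM (61, 51, 21 and 7). In the neuron list 0 of 15 were lower and RBFOX3 (35, 39, 90 and 131) was higher. In the pluripotent list 0 of 3 genes tested were called in either direction.

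The count of 19 depended on which reads were used. Reads assigned to 1 transcript alone left 37 members testable and 9 called, beside 2.98% of all genes called in either direction at that setting. Full-length reads left 26 and 2, beside 0.664%. The 9 included E2F1 and GINS1, and the 2 included GINS1, genes that are not among the 19. An additive DESeq2 model over all 4 libraries called 6, all among the 19, beside 1.33%. The share called over all genes was thus also below the 8.75% of the main rule in each case. An additive edgeR quasi-likelihood model called 21 lower and 0 higher (6.66% and 2.52% of all genes), of which 18 were shared with the 19.

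TDP-43 knockdown was asked about in the same way, as knockdown against control and both treatments against azacytidine. The rule called 0 of the 50 genes in either direction, beside 0.363% of all genes tested lower and 0.392% higher, 0.754% in all. The additive edgeR model called 0 as well (0.029% of all genes lower and 0.058% higher). The median log2 ratio of the members was -0.15 without and 0.02 with azacytidine, and the second value turned below 0 with total counts as the scale. In single pairs a few members passed. Without azacytidine 3 were lower and 0 higher (3.11% and 4.74% of all genes): PRIM1, with log2 -1.49, RFC5, -1.11, and TYMS, -1.23. With azacytidine 1 was lower and 7 were higher (3.27% and 3.7% of all genes). CLSPN was the lower one, and BRCA1, BRCA2, GINS1, POLA1, RFC1, RFC2 and TIMELESS were higher by gene reads. Rounded to whole reads, no BRCA2 transcript held a read in the azacytidine or the combined library. In the fork-coupled class 27.5% of the reads of the combined library were given to a transcript, beside 61.5% in the azacytidine library. CHEK1 had 80 reads with no treatment and 159 with the knockdown alone, a log2 ratio of 0.74 that was below the fold threshold (adjusted exact p = 0.00279).

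Whether the knockdown ratio differed between the backgrounds was tested with a two-sided conditional exact test given the library sizes, a test added after the values had been seen. It passed for 6 members at an adjusted exact p under 0.05 and a difference of at least 1 on the log2 scale: 5 had a higher ratio with azacytidine (2.16% of all genes tested) and 1 a lower ratio (3.47%). The largest was BRCA1, with a log2 knockdown ratio of -0.53 without and 4.22 with azacytidine (adjusted exact p = 5.50e-07). That value rests on the 1 read of the azacytidine library, and on 27 reads of the combined library of which 2 were given to a transcript, beside 56 of 122 in the control; BRCA1 overlaps NBR2 on the opposite strand. POLA1 had ratios of -0.32 and 2.50, TIPIN of -1.34 and 1.53, RFC2 of -0.74 and 1.22 and LIG1 of -0.73 and 0.90. CLSPN was the lower one, with 0.47 and -3.04. With reads given to a transcript, uniquely assigned reads or full-length reads, 0 of the 6 differences passed. No member was called crosswise, that is in opposite directions in the 2 backgrounds, beside 0.413% of all genes (0.167% and 0.247% by direction).

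**Figure D4:**
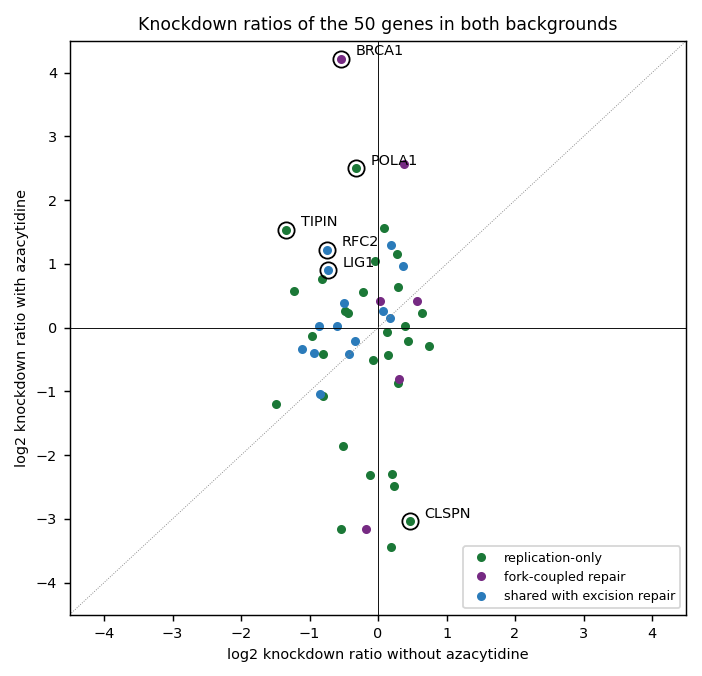
Log2 ratio of knockdown over no knockdown for each of the 50 genes, without azacytidine (x axis) and with azacytidine (y axis), coloured by class; the dotted line marks equal ratios. The 6 ringed and named genes passed the test of the difference with gene reads, and BRCA1 lies highest at 4.22 on the y axis.

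Transcripts of member genes were compared as shares of the gene's transcript reads. Of 50 member transcripts tested in 21 genes, 0 were called with azacytidine and 0 with the knockdown, beside 1.12% and 0.725% of the 15446 transcripts tested. In a single pair 3 passed the adjusted p with azacytidine and 5 with the knockdown, all in BLM, CHEK1 and RFC1. Uniquely assigned reads left 8 member transcripts in 2 genes testable, and 0 passed in a pair. Without azacytidine, 1 BLM transcript (ENST00000680772.1) made up 12.5% of the gene's transcript reads in the control and 58.5% with the knockdown (adjusted exact p = 0.000244). The same transcript had 0 of 9 BLM transcript reads with azacytidine and 0 of 7 with both, so the other pair showed no such change. Of the RFC1 transcripts, ENST00000381897.5 and ENST00000349703.7, of 4886 and 4870 bases, the first took all reads with azacytidine alone and 50% in each other library. ENST00000349703.7 had 0 uniquely assigned reads in every library, so these shares rest on how ambiguous reads were divided between the transcripts. Of the 50 member transcripts, 1 in each comparison had an unadjusted exact p under 0.05 in both pairs. With azacytidine it was a LIG1 transcript (ENST00000263274.12), whose share was lower in both pairs. With the knockdown it was an MCM7 transcript (ENST00000710813.1), whose share moved by 12.2 points without azacytidine and by -12.9 with it. The most common full-length transcript was an annotated one for every member except EXO1, with BRCA2 left out for want of a full-length read. The leading EXO1 transcript was an unannotated combination of annotated introns, 3399 bases in 15 exons, with 8 full-length reads with no treatment, 2 with the knockdown and 0 in both azacytidine libraries. In all, 19 unannotated transcripts with reads were found in 16 member genes, beside 197 annotated ones. They held 4.72%, 3.23%, 6.16% and 7.29% of the members' transcript reads with no treatment, the knockdown, azacytidine and both, in that order.

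Of the unannotated transcripts, MCM7 had the 2 with the most full-length reads. One of 2905 bases had 4, 3, 2 and 4 full-length reads with no treatment, the knockdown, azacytidine and both, and one of 3084 bases had 3, 3, 1 and 4, so both were found in every library. RFC2 had one with 8 full-length reads in all, MCM3 one with 6, and CHEK1 and RFC4 one each with 5. None of these used an intron outside the annotation. An unannotated PRIM1 transcript, with 4 full-length reads in all, ran on over an intron of 19459 bases into 6 exons that overlap NACA on the same strand (chromosome 12, 56712428 to 56714687). In RPA1 an exon outside the annotation (chromosome 17, 1844974 to 1845066) had 2 full-length reads, both in the combined library.

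Promoters were read because many members are known E2F targets and moved in the same direction. RefSeq windows of 300 bases, 250 before and 50 after the start site on GRCh38.p14, matched 42 of the 50 genes by symbol. Only the windows listed first for each symbol were kept. They were searched on both strands for the E2F motif in 4 spellings, TTTCCCGC, TTTGGCGC, TTTCGCGC and TTTGCCGC, which can overlap one another. A match was found in 22 of the 42 windows (52.4%), beside 3.33% of 27305 windows of all genes and 5.32% of 10347 windows of genes tested. Some windows, all kept in these shares, lie away from the start of the transcripts read here. The leading full-length transcript starts at 43125450 for BRCA1, 66356685 for TIPIN and 5119958 for PCNA. Their windows span 43170278 to 43170577, 66386668 to 66386967 and 5126573 to 5126872, in that order. Below, windows of 48 or 52 bases show the match in capitals, read 5′ to 3′ on the strand of the gene. The first 6 belong to genes called lower with azacytidine, and the last 5 to genes that were not called.
MCM3 (chr6:52284719-52284766, minus strand): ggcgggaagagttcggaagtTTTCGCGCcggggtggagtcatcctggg
POLA2 (chr11:65261889-65261936, plus strand): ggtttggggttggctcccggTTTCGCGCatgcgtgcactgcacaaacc
CLSPN (chr1:35769956-35770003, minus strand): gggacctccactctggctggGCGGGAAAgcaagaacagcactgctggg
DTL (chr1:212035720-212035767, plus strand): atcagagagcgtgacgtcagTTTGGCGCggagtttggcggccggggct
FANCD2 (chr3:10026415-10026462, plus strand): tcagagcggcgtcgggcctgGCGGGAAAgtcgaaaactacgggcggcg
POLE2 (chr14:49688192-49688239, minus strand): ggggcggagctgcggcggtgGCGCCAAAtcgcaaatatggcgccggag
MCM6 (chr2:135876564-135876615, minus strand): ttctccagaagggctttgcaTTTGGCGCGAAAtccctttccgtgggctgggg
MCM7 (chr7:100101379-100101426, minus strand): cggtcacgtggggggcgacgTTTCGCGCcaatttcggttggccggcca
POLA1 (chrX:24693761-24693808, plus strand): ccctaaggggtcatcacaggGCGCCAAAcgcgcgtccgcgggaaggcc
PCNA (chr20:5126654-5126701, minus strand): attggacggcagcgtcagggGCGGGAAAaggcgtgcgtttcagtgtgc
LIG1 (chr19:48170431-48170478, minus strand): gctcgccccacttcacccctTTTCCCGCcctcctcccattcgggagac

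The capitals of MCM6 hold 2 overlapping spellings, one on each strand. The same spelling as in MCM3, TTTCGCGC, stands near the RefSeq start in MCM7, 4 bases before it in MCM3 and 9 in MCM7. A second match stands at -174 in MCM3 and -187 in MCM7, counted from that start. The leading full-length transcript starts at 52284881 in MCM3, and at 100100869 in MCM7, outside the MCM7 window (100101348 to 100101647). Azacytidine gave log2 ratios of -1.58 for MCM3 and 0.10 for MCM7 with the knockdown, and without it both ratios were below 0. Whether these matches bear on the ratios was not tested. By class, a match was found in 15 of 25 replication-only windows (60.0%), 5 of 12 shared (41.7%) and 2 of 5 fork-coupled ones. The 41 nonmember repair genes had windows for 34, of which 2 held a match (5.88%). Among members a match was found in 9 of 15 windows of genes called lower with azacytidine and in 13 of 27 of those not called (60.0% and 48.1%), so windows with and without the motif occurred on both sides of the call. The CHR element TTTGAA, a feature of mitosis genes, was in 0 of the 42 member windows and in 6 of 9 windows of the mitosis list, beside 15.4% of all windows. CCAAT was in 24 of the 42 (57.1%), beside 35.7% of all windows. A match is a description of the letters, and binding was not measured.

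**Figure D5:**
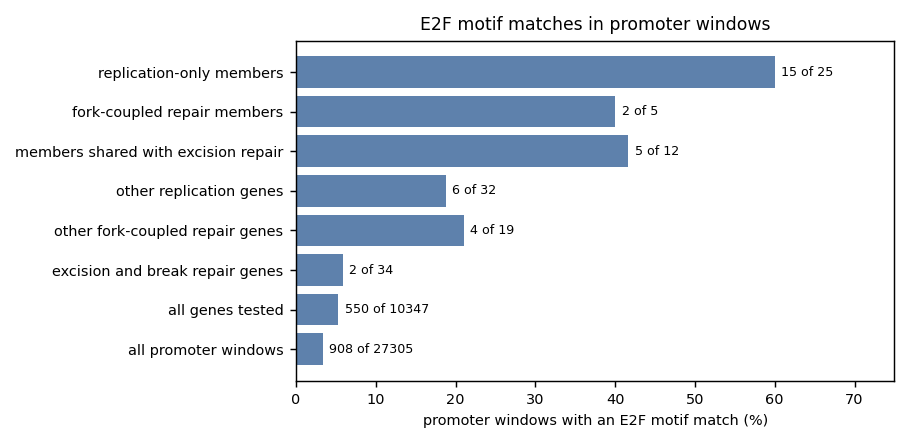
Share of RefSeq promoter windows with a match to the E2F motif (x axis, percent) in the 3 member classes, in further replication and repair genes, and in all genes tested and all windows; numbers at the bars are windows with a match of windows searched. The replication-only members stand at 15 of 25 and the excision and break repair genes at 2 of 34.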

How the data were processed

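RNA of 4 libraries, 1 per group by the treatment labels, was sequenced as Iso-Seq complementary DNA. Per the file headers, the authors aligned reads with minimap2 to hg38 and assigned them with Bambu; versions are not given in the sources used here. The deposited gene and transcript tables hold estimated counts, and uniquely assigned reads as counts. The deposited CPM values, scaled to the gene table sum, were only checked. All gene counts were even, so 2 counts were taken as 1 read; the halved values were rounded to whole reads. TMM factors (edgeR 4.0.16) were computed over the 13789 genes tested (mean of 5 reads or more), not over all genes. Log2 ratios used a pseudocount of 0.5. Transcripts were compared by Fisher's exact test, with at least 10 reads, a gene mean of at least 20 transcript reads and a change of at least 10 percentage points. The additive models used edgeR and DESeq2 1.42.0. The gene-level test steps were run on simulated counts with Poisson error only, so that check does not cover differences between libraries of 1 group. The 95% intervals and the floor of 3 reads for a count of 0 cover counting error only, and the floor takes the other library's count as exact. The members, classes and lists were chosen with earlier results of these data known. Any member could be named; of nonmember lists, the called genes with the largest and smallest changes were, and the values of 1 call among the nonmember repair genes are not reported here. Alternatives covered scaling, filter, pseudocount, fold threshold, read type, length trend, halving, single pairs and additive models.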

Additional observations from a re-analysis of the deposited data

Results flagged for a closer look

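The test of the difference between backgrounds drew attention to 6 members whose knockdown log2 ratio differed with and without azacytidine. BRCA1 differed by 4.75, TIPIN by 2.88, POLA1 by 2.81, RFC2 by 1.96 and LIG1 by 1.63, each higher with azacytidine, and CLSPN by -3.51, lower with azacytidine. BRCA1 had 122, 100, 1 and 27 reads with no treatment, the knockdown, azacytidine and both, of which 56, 57, 1 and 2 were given to a transcript. For RFC2 these were 34, 24, 19 and 44 and 26, 18, 15 and 24, for POLA1 65, 62, 5 and 30 and 29, 32, 5 and 11, and for TIPIN 22, 10, 6 and 18 and 9, 4, 5 and 8. LIG1 had 59, 42, 20 and 37 gene reads and CLSPN 43, 71, 12 and 1. Each library is the only one of its group, and the test was chosen after the data had been seen. None of the 6 differences passed with reads given to a transcript, and the cause was not tested.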

How the results depend on the processing

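No paired analysis was possible because each group has 1 library and the shared replicate number names no pair. The azacytidine count of 19 lay between 16 and 28 under all alternatives but 3: uniquely assigned reads gave 9 members lower, full-length reads 2 and the additive DESeq2 model 6. Over all genes the share called in either direction went from 8.75% to 2.98%, 0.664% and 1.33% at these settings. Of the 19 calls, 8 stood in each of 11 settings that tested them, with single pairs and additive models left out. Of these, DTL alone was tested in all 11, and ATAD2, CCNE2 and CLSPN were not called by the additive DESeq2 model. With full-length reads 7 of the 19 lost the call and 11 were not tested. Uniquely assigned reads left 7 replication-only, 2 fork-coupled and 0 shared genes lower, and full-length reads 2, 0 and 0. POLE2, the shared gene called, was also lost or not tested with total counts, a mean of at least 20 reads, no filter and reads given to a transcript (0 shared genes in each). MRE11 was lost with no filter, unique reads, full-length reads and the length trend removed (0 nonmember repair genes lower). For the knockdown, single pairs called 3 members without and 8 with azacytidine. Its median ratio with azacytidine turned to -0.032 with total counts, -0.106 with unique reads, -0.030 with full-length reads and -0.195 with reads given to a transcript. The 6 differences between backgrounds became 3 with no filter, 0 with unique reads, 0 with full-length reads, 0 with reads given to a transcript and 19 with counts not halved, which also gave 1 crosswise call. Medians of the nonmember repair list turned to 0.085 (with the knockdown, total counts), -0.066 and 0.282 (without and with it, unique reads), -0.115 (without it, length trend removed) and -0.112 (without it, reads given to a transcript). The cause of these shifts was not tested, apart from the smaller number of members testable with unique (37) and full-length reads (26). The choice of test for the background difference and the reads given to a transcript were added after seeing the data.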
